A study of Homo sapiens with 8 samples.

Results

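The subunits of the proteasome, its assembly chaperones and its activators were followed in 2 human squamous carcinoma lines given an inhibitor of the NEDD8 pathway. The genes were chosen by symbol: every PSMA, PSMB, PSMC, PSMD, PSMF and PSMG gene, with PSME3, PSME4, ADRM1, SEM1 and POMP, and without the immunoproteasome subunits PSMB8, PSMB9 and PSMB10 and without pseudogenes. This gave 46 genes of 61533 gene identifiers in the count tables. By role they were 8 genes of the alpha ring and 8 of the beta ring of the core particle, 10 of the base and 9 of the lid of the regulatory particle, 8 assembly chaperones, and 3 activators or inhibitors.

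A431 is labelled a human epidermoid carcinoma line, and CAL27 derives from a squamous carcinoma of the tongue. Each line was given DMSO, the solvent control, or a compound named only as NEDD8i in the labels, for 16 h, and RNA was taken from 2 libraries of each of the 4 groups. The 4 groups were A431 with DMSO, A431 with NEDD8i, CAL27 with DMSO and CAL27 with NEDD8i, and no genetic change other than those of the lines is labelled. Each line is a single tumour's culture. The dose of NEDD8i was not stated. The labels do not say that the 2 libraries of a group are separate cultures, and the p-values therefore reflect the spread between these libraries only, which may be technical. RNA was read at the 3′ ends of polyadenylated transcripts.

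The proteasome is the enzyme that degrades proteins tagged with ubiquitin. Its core particle is a barrel of rings, in which the beta subunits PSMB5, PSMB6 and PSMB7 cut peptide bonds inside the chamber, and the alpha subunits gate the entrance. The regulatory particle caps the barrel: the lid removes ubiquitin chains, and the ATPases of the base unfold the substrate and thread it into the core. NEDD8 is a ubiquitin-like protein whose attachment to cullins switches on the cullin-RING ubiquitin ligases, which mark many short-lived proteins for the proteasome. Proteasome genes are known to be transcribed together, through NFE2L1, a factor that pairs with small MAF proteins and is released when proteasome activity is short.

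The libraries held 49037868 to 62509817 counts. Squamous markers (KRT5, KRT14, KRT17, TP63, CDH1 and EGFR) were present in every group, the lowest group mean being 116 CPM for TP63 in CAL27 with NEDD8i. Their levels were not steady: 3 were called higher and 2 lower with NEDD8i in A431, and 3 higher and 3 lower in CAL27. In CAL27 the group mean of TP63 with DMSO was 526 CPM, and KRT17 went from 1148 to 2823 CPM. CPM are counts of a gene relative to all counts of a library, with library sizes adjusted by TMM factors, which balance the libraries on most genes. Of 10 markers of leukocytes, endothelium and fibroblasts, PTPRC and CD68 had 0 counts in all 8 libraries, and 6, those included, stayed under 1 CPM in every library. The summed level of the 10, mostly CDH5 and COL1A1, was 33.3 to 34.3 CPM in A431 with DMSO and 13.7 to 15.3 with NEDD8i, and 26.5 to 28.4 in CAL27 with DMSO and 16.5 to 19.8 with NEDD8i. CDH5 itself was called lower in A431 and higher in CAL27, where its group mean went from 5.87 to 10.3 CPM. The mitochondrial share of counts was also lower with NEDD8i in both lines, at 1.96% to 2.27% against 2.69% to 3.15% in A431 and 1.02% to 1.45% against 1.56% to 1.77% in CAL27. The part of the marker levels and of the mitochondrial share in the results was not tested.

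Upstream sequences are shown because the genes are known to share promoter elements and because most of them were higher together with the inhibitor. Of the 46 genes, 40 matched a RefSeq promoter (GRCh38.p14, 250 bases before to 50 after the annotated start). PSMA7, PSMB1, PSMB6, PSMB7, PSMD4 and PSMG3 did not. The 250 bases before the start are printed for PSMD2, ADRM1 and PSMD12, the 3 largest called rises in CAL27, and for PSMD7, the gene of the lid that fell there. Capitals mark TGACNNNGC or CCAAT, on either strand. TGACNNNGC is the core of the antioxidant response element, to which NFE2L1 and related factors bind with small MAF proteins.
PSMD2 (chr3:184298991-184299240, plus strand): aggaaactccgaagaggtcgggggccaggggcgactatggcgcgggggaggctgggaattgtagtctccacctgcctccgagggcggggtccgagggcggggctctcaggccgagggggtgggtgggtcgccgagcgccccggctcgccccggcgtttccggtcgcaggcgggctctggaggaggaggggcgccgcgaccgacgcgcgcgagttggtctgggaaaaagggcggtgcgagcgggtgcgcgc
ADRM1 (chr20:62302646-62302895, plus strand): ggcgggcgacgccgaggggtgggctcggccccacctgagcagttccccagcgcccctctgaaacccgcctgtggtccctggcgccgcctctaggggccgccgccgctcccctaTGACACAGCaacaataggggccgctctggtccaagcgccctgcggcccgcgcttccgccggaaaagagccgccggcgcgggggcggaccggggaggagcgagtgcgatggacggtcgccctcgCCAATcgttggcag
PSMD12 (chr17:67366578-67366827, minus strand): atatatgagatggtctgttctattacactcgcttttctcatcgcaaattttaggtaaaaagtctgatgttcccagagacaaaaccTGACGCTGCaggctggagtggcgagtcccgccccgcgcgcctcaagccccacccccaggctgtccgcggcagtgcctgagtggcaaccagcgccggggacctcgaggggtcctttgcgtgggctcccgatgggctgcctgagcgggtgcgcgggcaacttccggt
PSMD7 (chr16:74296564-74296813, plus strand): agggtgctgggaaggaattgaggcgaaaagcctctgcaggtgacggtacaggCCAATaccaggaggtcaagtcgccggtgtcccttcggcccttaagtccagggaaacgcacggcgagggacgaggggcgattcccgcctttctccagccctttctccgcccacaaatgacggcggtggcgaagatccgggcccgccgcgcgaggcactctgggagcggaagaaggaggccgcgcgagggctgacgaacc
The PSMD2 stretch held neither element, ADRM1 held both, PSMD12 held TGACNNNGC and PSMD7 held CCAAT. The ADRM1 start in RefSeq lies 803 bases from the outermost start in the count table's annotation. Larger distances, of 8971 to 123231 bases, were those of PSME3, PSMA6, PSMC2, PSMG4 and PSMA1, whose promoters are among the 40.

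TGACNNNGC was searched on both strands over the whole 300 bases. It was found in 11 of the 40 promoters (27.5%), against 13.3% of all 35116 RefSeq promoters of the same length. Those were not chosen for expression or base composition, in which they may differ from the 40. The shares were not tested against each other. TGACTCAGC, 1 specific form of it, was found in 0 of the 40 and in 0.561% of all promoters, and CCAAT in 19 of the 40 (47.5%) and in 34.6% of all. TGACTCAGC is contained in TGACNNNGC, so those matches overlap. A match is a description of the letters only. Some of the matches upstream of the start are printed with 20 bases on either side, to show how they differ between a beta subunit, a lid subunit, an activator and 3 chaperones.
PSMB3 (chr17:38752617-38752665, plus strand): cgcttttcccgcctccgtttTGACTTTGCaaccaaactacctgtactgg
PSMD3 (chr17:39980750-39980798, plus strand): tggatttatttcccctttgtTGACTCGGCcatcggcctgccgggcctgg
PSME4 (chr2:53970999-53971047, minus strand): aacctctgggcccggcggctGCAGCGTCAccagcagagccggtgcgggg
PSMD5 (chr9:120843028-120843076, minus strand): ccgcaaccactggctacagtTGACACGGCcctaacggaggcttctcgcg
PSMG1 (chr21:39183606-39183654, minus strand): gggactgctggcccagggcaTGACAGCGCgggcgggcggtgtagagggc
PSMG2 (chr18:12658679-12658727, plus strand): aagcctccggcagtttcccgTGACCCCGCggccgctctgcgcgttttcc
The match was on the strand opposite to the gene in PSME4 and on the gene's own strand in the other 5. The distances to the start ranged from 34 bases in PSME4 to 183 in PSMG1.

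With NEDD8i most proteasome genes were higher in both lines, by modest amounts. The largest called rise was 0.74 on the log2 scale in A431, for PSMD6, and 1.11 in CAL27, for PSMD2. Of the 44 genes that passed the filter on low counts, 30 were called higher and 1 lower in A431, where 22.5% of all 18738 genes tested were called higher and 21.1% lower (43.6% in either direction). In CAL27, 30 were called higher and 4 lower, where 23.2% of all genes were called higher and 26.4% lower (49.6% in either direction). Calls are at adjusted p under 0.05 by edgeR's quasi-likelihood test with Benjamini-Hochberg adjustment over all genes. The median log2 change was 0.22 in A431 and 0.35 in CAL27, beside -0.01 and -0.04 over all genes. In these bulk samples, fewer cells of a type and less RNA per cell cannot be told apart.

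The genes not tested were PSMA8, the testis form of an alpha subunit, with 0 counts in all 8 libraries, and PSMB11, the thymus beta subunit, with 2 counts in a single A431 DMSO library. In 1 library 3 counts are 0.048 to 0.0612 CPM, the level that a count of 0 allows, for counting error only. Both NEDD8i libraries lay above both DMSO libraries for 38 of the 44 genes in A431 and for 35 in CAL27, where 32.9% and 35.0% of all genes did so. They lay below for 3 genes in A431 and for 6 in CAL27 (34.6% and 39.5% of all genes). The 44 genes together took 8153 and 7900 CPM in A431 with DMSO and 10012 and 9808 with NEDD8i, and 8717 and 8794 CPM in CAL27 with DMSO and 12239 and 12100 with NEDD8i. The ratio of the group means was 1.23 in A431 and 1.39 in CAL27.

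**Figure D1:**
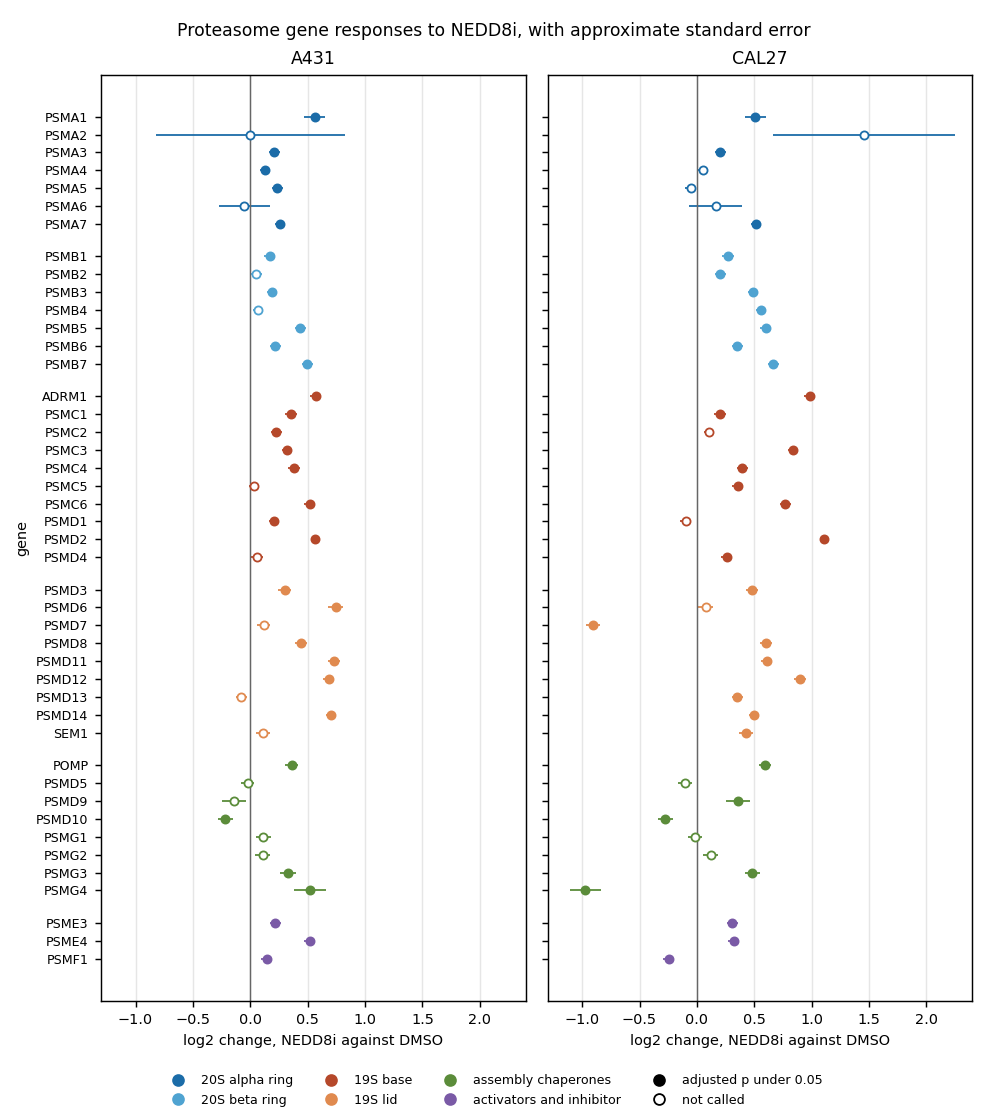
Log2 change with NEDD8i against DMSO for the 44 tested proteasome genes, ordered by role, in A431 and CAL27. Bars are approximate standard errors and filled points have an adjusted p under 0.05. Most points lie above 0, and PSMG4 and PSMD7 lie far below 0 in CAL27.

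In both lines 23 of the 44 genes were called higher, where 13.3% of all genes tested were. They were the alpha subunits PSMA1, PSMA3 and PSMA7, the beta subunits PSMB1, PSMB3, PSMB5, PSMB6 and PSMB7, the base genes PSMC1, PSMC3, PSMC4, PSMC6, PSMD2 and ADRM1, the lid genes PSMD3, PSMD8, PSMD11, PSMD12 and PSMD14, the chaperones POMP and PSMG3, and the activators PSME3 and PSME4. PSMD10 was the only one of the 44 called lower in both (12.8% of all genes). PSMG4 and PSMF1 were called higher in A431 and lower in CAL27 (3.29% of all genes). PSMA2, PSMA6, PSMD5, PSMG1 and PSMG2 were called in neither line (37.9% of all genes). The counts of 6 genes are uncertain, since over 10% of their exonic bases also belong to other genes and reads over more than 1 gene were dropped. The shared part was 94.7% in PSMA2, 83.2% in PSMC1, 63.9% in PSMA6, 41.4% in PSMA1, 27.6% in PSMD7 and 14.2% in PSMD9. PSMC1 and PSMA1 are among the genes called higher in both lines, and PSMA2 had 156 counts over the 8 libraries. Without these 6 genes, 28 of 38 were called higher and 1 lower in A431, and 27 higher and 3 lower in CAL27.

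In the base of the regulatory particle the summed CPM with NEDD8i were 1.32 times those with DMSO in A431 and 1.60 times in CAL27. Of its 10 genes 8 were called higher in each line and 0 lower, with median log2 changes of 0.34 and 0.37. Over all genes tested, 22.5% were called higher and 21.1% lower in A431, and 23.2% and 26.4% in CAL27. PSMD2, the large scaffold on which ubiquitin receptors and shuttles dock (chromosome 3, 184299241 to 184309050), was at 903 and 871 CPM in A431 with DMSO and at 1348 and 1276 with NEDD8i. In CAL27 it was at 764 and 771 CPM with DMSO and at 1666 and 1641 with NEDD8i. The groups did not overlap in either line. The log2 change was 0.56 ± 0.04 (SE) in A431 (edgeR adjusted p = 1.69e-09) and 1.11 ± 0.04 in CAL27 (edgeR adjusted p = 1.54e-13), a 2.16-fold rise and the largest called rise of any proteasome gene in that line.

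ADRM1 is a ubiquitin receptor of the base that also holds the deubiquitinase UCHL5. It stood at 159 and 148 CPM in A431 with DMSO and 235 and 222 with NEDD8i, and at 249.95 and 248 CPM in CAL27 with DMSO and 487 and 496 with NEDD8i. All NEDD8i libraries were above the DMSO libraries of their line. ADRM1 rose by a log2 change of 0.57 ± 0.05 in A431 (edgeR adjusted p = 2.53e-08) and 0.98 ± 0.05 in CAL27 (edgeR adjusted p = 1.17e-11). PSMC6, an ATPase of the base ring, went from 158 and 151 to 219 and 224 CPM in A431 and from 164 and 164 to 272 and 288 CPM in CAL27. Here too the groups stood apart, with log2 changes of 0.52 ± 0.05 and 0.77 ± 0.05 (edgeR adjusted p = 1.01e-07 and 3.72e-10).

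PSMC3, another ATPase, had 271 and 260.0 CPM in A431 with DMSO and 329 and 334 with NEDD8i, against 262 and 275 CPM in CAL27 with DMSO and 486 and 477 with NEDD8i. The DMSO levels of the lines overlapped while the NEDD8i levels did not. Its log2 change was 0.32 ± 0.04 in A431 (edgeR adjusted p = 9.8e-06) and 0.84 ± 0.04 in CAL27 (edgeR adjusted p = 3.46e-11). PSMC1 and PSMC4 were also called higher in both lines, PSMC2 and the scaffold PSMD1 in A431, and PSMC5 and the ubiquitin receptor PSMD4 in CAL27. The call for PSMC1 in CAL27 was lost without CAL27 DMSO replicate 1. PSMC1 is also the gene with the most pseudogenes by name, 13, which held 2354 counts in all beside its own 52592.

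**Figure D2:**
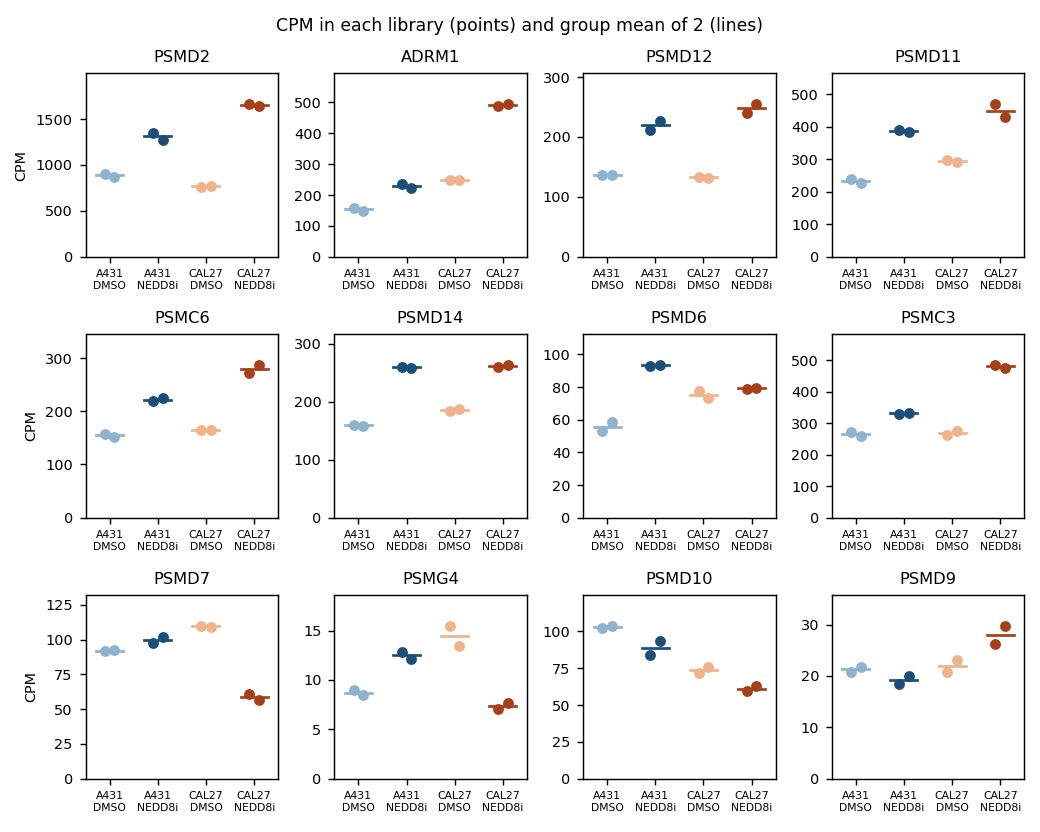
CPM in each of the 8 libraries (points) and the group means (lines) for 12 proteasome genes named by the size of their change. In CAL27, PSMD2 stands at 764 and 771 CPM with DMSO and at 1666 and 1641 with NEDD8i, while PSMD7 and PSMG4 are lower with NEDD8i.

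In the lid, 6 of 9 genes were called higher in A431 and 0 lower, and 7 higher and 1 lower in CAL27. The medians were 0.44 and 0.48. All genes tested had 22.5% called higher and 21.1% lower in A431, and 23.2% and 26.4% in CAL27. PSMD12, a structural subunit, went from 137 and 137 to 212 and 227 CPM in A431 and from 134 and 132 to 240.3 and 255 CPM in CAL27. PSMD11, the subunit that clamps the lid onto the core, went from 238 and 227 to 388 and 383 CPM in A431 and from 299 and 291 to 470.1 and 428 CPM in CAL27. Neither gene's groups overlapped. The log2 changes were 0.68 ± 0.05 and 0.90 ± 0.05 for PSMD12 (edgeR adjusted p = 5.66e-09 and 9.65e-11) and 0.73 ± 0.05 and 0.61 ± 0.05 for PSMD11 (edgeR adjusted p = 1.71e-09 and 1.01e-08).

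PSMD14 is the deubiquitinase that cuts ubiquitin chains from substrates as they enter. Its levels were 159.9 and 158 CPM in A431 with DMSO and 259.8 and 258 with NEDD8i, and 185 and 187 CPM in CAL27 with DMSO and 260.4 and 264 with NEDD8i. With NEDD8i the lines reached nearly the same level from different DMSO levels, and its log2 change was 0.70 ± 0.04 in A431 and 0.50 ± 0.04 in CAL27 (edgeR adjusted p = 6.29e-10 and 3.22e-08). PSMD3 and PSMD8 were called higher in both lines, and PSMD13 and SEM1, the smallest lid subunit, in CAL27.

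PSMD7, the catalytically inactive partner of PSMD14, went the other way in CAL27. Its levels were 91.5 and 92.4 CPM in A431 with DMSO and 97.3 and 102 with NEDD8i, and 110.2 and 109 CPM in CAL27 with DMSO and 60.6 and 56.5 with NEDD8i. The 2 CAL27 NEDD8i libraries were the lowest of the 8. The log2 change was -0.90 ± 0.06 in CAL27 (edgeR adjusted p = 6.23e-10), a 1.87-fold lower level, and 0.12 ± 0.06 in A431 (edgeR adjusted p = 0.119). PSMD7 lies on chromosome 16 at 74296814 to 74306288, and 27.6% of its exonic bases lie in exons of an antisense gene. The span of that gene, 74305256 to 74332613, covers the 3′ end of PSMD7. It had 2 to 14 counts in a library, beside 3262 to 7196 for PSMD7. Reads over exons of both genes were dropped, so these low counts do not measure the overlap. The part of the overlap in the PSMD7 change was not tested.

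PSMD6, a structural lid subunit, responded in A431. It stood at 53.1 and 58.3 CPM in A431 with DMSO and 92.8 and 93.7 with NEDD8i, and at 77.3 and 73.0 CPM in CAL27 with DMSO and 78.8 and 79.7 with NEDD8i. The A431 NEDD8i libraries were the highest of the 8. Its log2 change in A431, 0.74 ± 0.06 (edgeR adjusted p = 3.83e-08), was the largest called rise of any proteasome gene in that line, and the change in CAL27 was 0.08 ± 0.06 (edgeR adjusted p = 0.35).

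In the core particle most beta genes were higher. Of 7 tested beta genes, 5 were called higher in A431 and 7 in CAL27, with 0 lower and medians of 0.19 and 0.49. Among all genes tested 22.5% were called higher in A431 and 23.2% in CAL27. The 3 catalytic subunits rose in both lines. PSMB5, with the chymotrypsin-like site, went from 216 and 198 to 280.4 and 281 CPM in A431 and from 198 and 206 to 302 and 309.6 CPM in CAL27. PSMB6, with the caspase-like site, went from 96.1 and 94.3 to 110.5 and 111 CPM in A431 and from 198 and 201 to 261 and 248 CPM in CAL27. PSMB7, with the trypsin-like site, went from 186 and 187 to 268 and 259 CPM in A431 and from 370.5 and 380.2 to 625 and 564 CPM in CAL27. NEDD8i and DMSO libraries did not overlap for any of them. The log2 changes in A431 and CAL27 were 0.44 ± 0.05 and 0.60 ± 0.05 for PSMB5 (edgeR adjusted p = 9.89e-07 and 1.21e-08), 0.22 ± 0.05 and 0.35 ± 0.05 for PSMB6 (edgeR adjusted p = 0.00144 and 6.56e-06), and 0.50 ± 0.05 and 0.66 ± 0.05 for PSMB7 (edgeR adjusted p = 2.54e-07 and 3.53e-09). Of the noncatalytic beta genes PSMB1 and PSMB3 were called higher in both lines, and PSMB2 and PSMB4 in CAL27. The A431 call for PSMB1 was lost without A431 DMSO replicate 2 or A431 NEDD8i replicate 1.

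In the alpha ring 5 of 7 tested genes were called higher in A431 (PSMA1, PSMA3, PSMA4, PSMA5 and PSMA7) and 3 in CAL27 (PSMA1, PSMA3 and PSMA7). The medians were 0.21 in each line and 0 were called lower. The shares called higher among all genes tested were 22.5% in A431 and 23.2% in CAL27. The call for PSMA4 in A431 was lost without A431 DMSO replicate 1 or A431 NEDD8i replicate 2.

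The inducible counterparts of the catalytic subunits moved against them. PSMB8, PSMB9 and PSMB10 replace PSMB5, PSMB6 and PSMB7 in the immunoproteasome, the form that interferon induces for making antigenic peptides, and PSME1 and PSME2 form its activator. All 5 genes were called lower in both lines (12.8% of all genes), with medians of -1.06 in A431 and -1.54 in CAL27. PSMB9 went from 118 and 119 to 28.3 and 30.8 CPM in A431 and from 145 and 152 to 23.7 and 22.7 CPM in CAL27. PSMB10 went from 57.7 and 45.6 to 14.1 and 14.0 CPM in A431 and from 35.8 and 34.5 to 6.54 and 5.80 CPM in CAL27. PSMB8 went from 176 and 175 to 84.2 and 84.3 CPM in A431 and from 182 and 188 to 64.5 and 62.8 CPM in CAL27. The NEDD8i libraries were below the DMSO libraries in each case. The log2 changes were -2.00 ± 0.06 and -2.68 ± 0.07 for PSMB9, -1.87 ± 0.11 and -2.51 ± 0.12 for PSMB10, and -1.06 ± 0.05 and -1.54 ± 0.05 for PSMB8. All 3 fell further in CAL27, with differences between the responses of -0.67, -0.64 and -0.48 (edgeR adjusted p = 1.43e-05, 0.00515 and 3.59e-05).

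**Figure D3:**
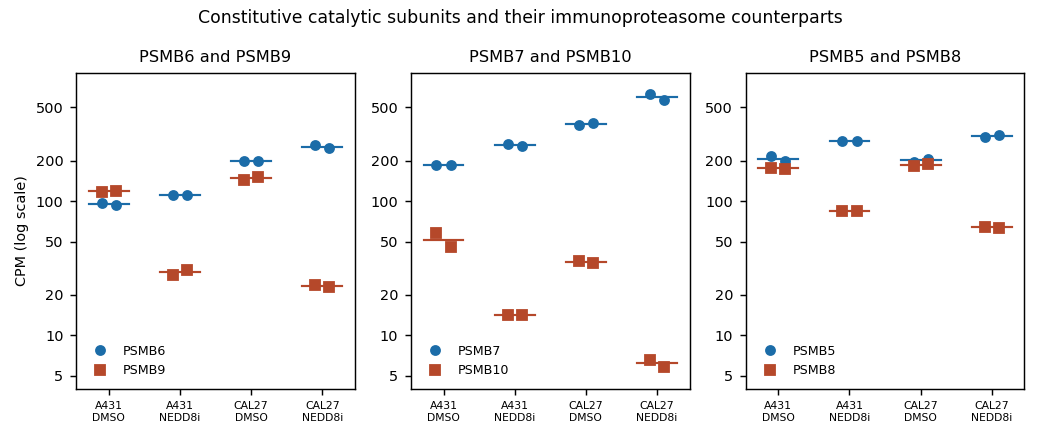
CPM on a log axis in the 8 libraries for the catalytic subunits PSMB6, PSMB7 and PSMB5 and their inducible counterparts PSMB9, PSMB10 and PSMB8. In both lines the catalytic subunit is higher and the counterpart lower with NEDD8i.

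The assembly chaperones, which build the particle and leave it, had summed CPM with NEDD8i of 1.05 times those with DMSO in A431 and 1.14 times in CAL27. Of 8 genes 3 were called higher and 1 lower in A431, and 3 higher and 2 lower in CAL27, with medians of 0.11 and 0.05. These small counts stand beside 22.5% higher and 21.1% lower of all genes tested in A431, and 23.2% and 26.4% in CAL27. POMP, which guides maturation of the core, went from 73.1 and 66.5 to 90.8 and 88.3 CPM in A431 and from 166 and 165 to 244 and 256 CPM in CAL27. No library of one treatment fell among those of the other within a line, and the log2 changes were 0.36 ± 0.06 and 0.59 ± 0.05 (edgeR adjusted p = 4.44e-05 and 5.04e-08). PSMG3 was called higher in both lines, while PSMG1 and PSMG2, the pair that starts the alpha ring, and PSMD5 were called in neither.

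PSMG4, the partner of PSMG3 in the alpha ring chaperone, had 8.97 and 8.46 CPM in A431 with DMSO and 12.9 and 12.1 with NEDD8i, and 15.5 and 13.4 CPM in CAL27 with DMSO and 7.06 and 7.65 with NEDD8i. Its groups did not overlap in either line and stood in opposite order. The log2 change was 0.52 ± 0.14 in A431 (edgeR adjusted p = 0.00505) and -0.97 ± 0.14 in CAL27 (edgeR adjusted p = 1.14e-05), on 380 to 885 counts a library. PSMG4 is annotated on chromosome 6 at 3231807 to 3303373, and 10.5% of its exonic bases lie within the span of SLC22A23, a gene on the opposite strand, though in none of its exons. SLC22A23, looked up after the PSMG4 values were seen, went from 18.5 and 19.7 to 25.5 and 28.6 CPM in A431 and from 30.3 and 31.3 to 16.9 and 19.2 CPM in CAL27. Its log2 changes of 0.50 ± 0.10 and -0.77 ± 0.10 (edgeR adjusted p = 0.000546 and 4.53e-06) have the signs of those of PSMG4. Counting ignored strand, and the part of SLC22A23 reads in the PSMG4 counts was not tested.

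PSMD10 (gankyrin), a chaperone of the base, was lower with NEDD8i. It stood at 103 and 104 CPM in A431 with DMSO and 83.9 and 93.6 with NEDD8i, and at 71.8 and 76.1 CPM in CAL27 with DMSO and 59.4 and 62.8 with NEDD8i. The groups did not overlap, and the log2 change was -0.22 ± 0.06 in A431 (edgeR adjusted p = 0.0108) and -0.27 ± 0.07 in CAL27 (edgeR adjusted p = 0.00194). Each call rests on single libraries: in A431 it was -0.14 (edgeR adjusted p = 0.206) without A431 NEDD8i replicate 1, and in CAL27 -0.22 (edgeR adjusted p = 0.053) without CAL27 DMSO replicate 2.

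PSMD9, another base chaperone, had 20.7 and 21.8 CPM in A431 with DMSO and 18.5 and 19.97 with NEDD8i, and 20.7 and 23.1 CPM in CAL27 with DMSO and 26.3 and 29.8 with NEDD8i. The NEDD8i libraries were below DMSO in A431 and above it in CAL27. Its log2 change was -0.14 ± 0.10 in A431 (edgeR adjusted p = 0.292) and 0.36 ± 0.10 in CAL27 (edgeR adjusted p = 0.00738). The CAL27 call was lost without CAL27 DMSO replicate 1 (0.30, edgeR adjusted p = 0.0824) or CAL27 NEDD8i replicate 2 (0.27, edgeR adjusted p = 0.092).

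Of the activators, PSME3, which opens the core in the nucleus, and PSME4, the large single-chain activator, were called higher in both lines, with log2 changes of 0.22 and 0.52 in A431 and 0.31 and 0.32 in CAL27. PSMF1, known as an inhibitor of the core in vitro, went from 256 and 246 to 285 and 271 CPM in A431 and from 185 and 185 to 160.1 and 151 CPM in CAL27. The groups were apart in each line and in opposite order. Its log2 change was 0.15 ± 0.05 in A431 (edgeR adjusted p = 0.021) and -0.25 ± 0.05 in CAL27 (edgeR adjusted p = 0.000344), and the A431 call was lost without A431 DMSO replicate 2 or A431 NEDD8i replicate 1.

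The lines were then compared for the size of the response. The difference, CAL27 response minus A431 response on the log2 scale, was tested itself. It was called positive for 14 of the 44 genes and negative for 8 (14.2% and 19.8% of all genes, 34.0% together). The median difference was 0.14, beside -0.04 over all genes, and was 0.06 without CAL27 NEDD8i replicate 1. PSMD2 and PSMC3 had the largest called positive differences, 0.54 ± 0.05 and 0.52 ± 0.06 (edgeR adjusted p = 4.29e-07 and 3.7e-06). PSMG4, PSMD7 and PSMD6 had the largest negative ones, -1.49 ± 0.19, -1.02 ± 0.08 and -0.67 ± 0.09 (edgeR adjusted p = 1.07e-05, 4.06e-08 and 1.43e-05). PSMD9 differed by 0.50 ± 0.15 (edgeR adjusted p = 0.0128), a call lost without CAL27 DMSO replicate 1 (0.44, edgeR adjusted p = 0.0668) or CAL27 NEDD8i replicate 2 (0.40, edgeR adjusted p = 0.0683). The negative difference of PSMD7 is that of a fall in CAL27, and the negative difference of PSMD6 that of a rise in A431. By role, the called differences were positive for 6 base genes and negative for 1, positive for 3 lid genes and negative for 3, positive for 2 beta genes and negative for 0, and positive for 1 alpha gene and negative for 1. They were positive for 2 chaperones and negative for 1, and positive for 0 and negative for 2 of the activators and inhibitor.

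**Figure D4:**
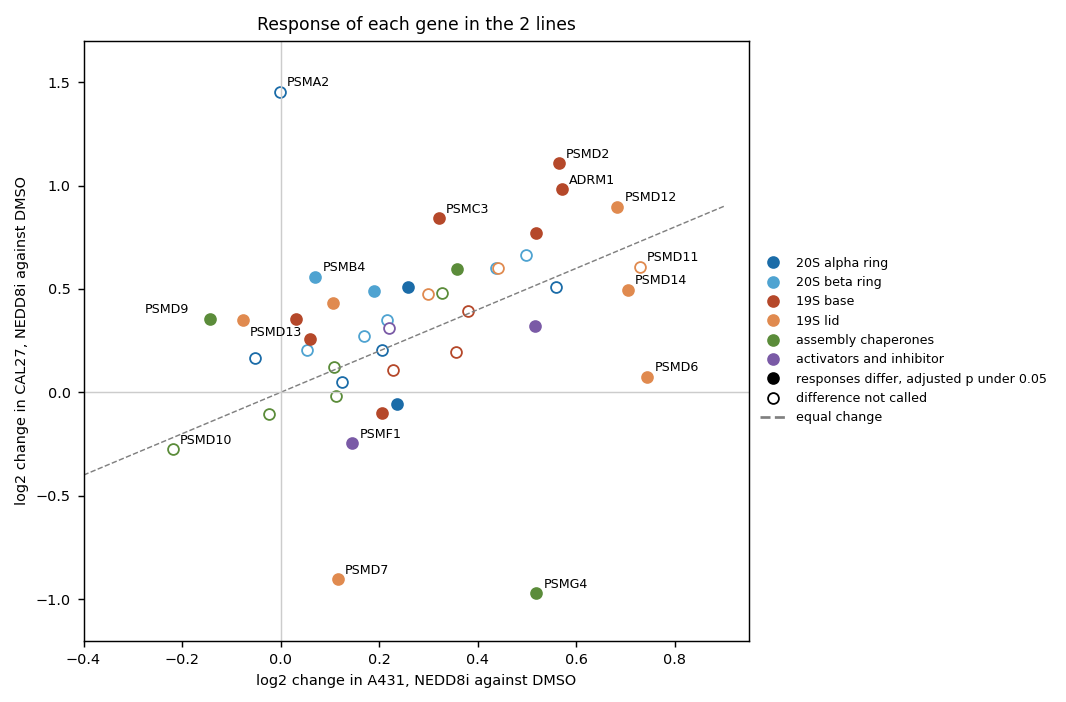
Log2 change with NEDD8i in A431 (horizontal) and CAL27 (vertical) for the 44 tested proteasome genes, with the dashed line marking equal change and filled points a called difference. Most points lie above 0 on both axes, and PSMG4 and PSMD7 lie below 0 in CAL27.

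Of the 7 genes called higher in CAL27 and not in A431 (PSMB2, PSMB4, PSMC5, PSMD4, PSMD9, PSMD13 and SEM1, where 8.22% of all genes were), the difference was called for all but PSMB2. Of the 5 called higher in A431 and not in CAL27 (PSMA4, PSMA5, PSMC2, PSMD1 and PSMD6, where 5.98% of all genes were), it was called for PSMA5, PSMD1 and PSMD6. PSMC2 changed by 0.11 in CAL27 (edgeR adjusted p = 0.0581) and was called there in 8 of 15 settings. Across the 44 genes the changes in the lines had a Pearson r of 0.293 and a Spearman rho of 0.433, a description over genes, which are not independent. The 44 include PSMA2, whose change of 1.45 ± 0.79 in CAL27 rests on low counts. The A431 and CAL27 responses share no library, but all were scaled and fitted together.

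Without the inhibitor the lines also differed, in these genes as over all genes tested. Under DMSO 20 proteasome genes were higher in CAL27 and 9 lower, with a median log2 difference of 0.09, where 29.9% of all genes were called higher and 29.0% lower (58.9% in either direction) and the median was 0.05. The largest called differences were those of POMP, PSMC4, PSMB6 and PSMB7. POMP was at 166 and 165 CPM in CAL27 and at 73.1 and 66.5 in A431, a log2 difference of 1.25 ± 0.06 (edgeR adjusted p = 3.04e-12). PSMC4, an ATPase of the base, was at 231 and 229 CPM in CAL27 and at 105 and 96.1 in A431, a difference of 1.19 ± 0.05 (edgeR adjusted p = 1.72e-12). For PSMB6 and PSMB7 the DMSO values given above amount to log2 differences of 1.07 ± 0.05 and 1.01 ± 0.05 (edgeR adjusted p = 3.83e-12 and 1.1e-11), while for PSMB5 the difference was -0.04 ± 0.05 (edgeR adjusted p = 0.514). The gap between the lines was thus called for 2 of the 3 catalytic subunits. The alpha ring had 0 genes called higher and 3 called lower in CAL27, and the chaperones 5 higher and 1 lower. The base had 5 higher and 1 lower, the lid 6 and 0, the beta ring 3 and 3, and the activators and inhibitor 1 and 1. This comparison shares its DMSO libraries with the responses above.

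**Figure D5:**
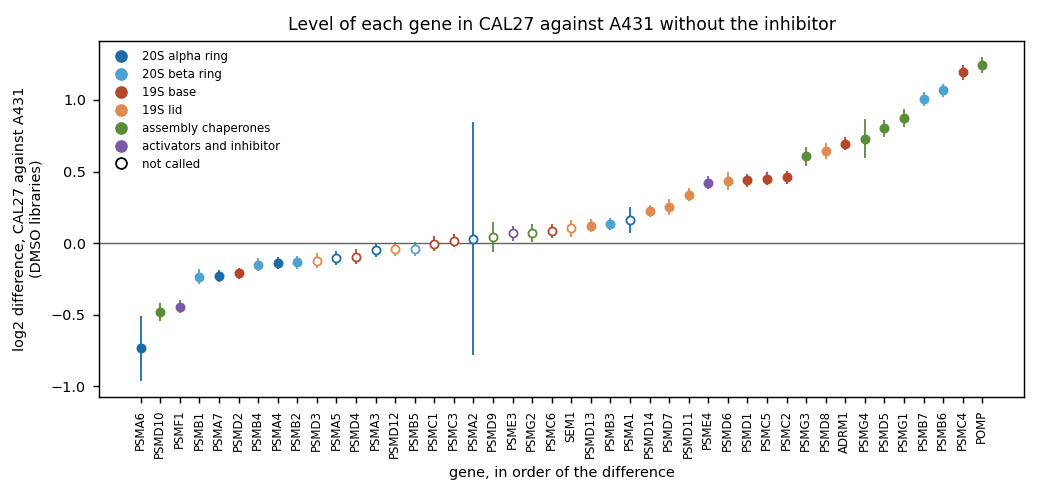
Log2 difference between CAL27 and A431 under DMSO for the 44 tested proteasome genes, in order of size, with approximate standard errors. POMP, PSMC4, PSMB6 and PSMB7 stand at the upper end, at 1.01 to 1.25.

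Genes that act with the proteasome were counted from lists made by function. Of 17 enzymes, shuttles and adaptors that bind the proteasome, 13 were called higher and 1 lower in A431, and 10 higher and 5 lower in CAL27, with medians of 0.34 and 0.19. Over all genes tested, 22.5% were called higher and 21.1% lower in A431, and 23.2% and 26.4% in CAL27. ZFAND2A, an adaptor induced by arsenite, had the largest change, 1.57 ± 0.08 in A431 and 1.87 ± 0.08 in CAL27. PITHD1 changed by 0.34 ± 0.07 and 1.15 ± 0.07, and AKIRIN2, which carries proteasomes into the nucleus, by 0.87 ± 0.06 and 0.93 ± 0.06. All 6 changes were called. Of the 8 genes of the NFE2L1 route (NFE2L1, the enzymes that release it and the small MAF genes), 7 were called higher and 0 lower in A431. In CAL27 4 were called higher, namely NFE2L1, MAFF, MAFG and MAFK. SEL1L was called lower there (-0.42 ± 0.05), and DDI2, NGLY1 and SYVN1 were not called. The part of this route in the changes of the proteasome genes was not tested. The small MAF genes rose most: log2 changes in A431 and CAL27 were 2.38 ± 0.09 and 3.44 ± 0.09 for MAFF, 2.62 ± 0.07 and 2.11 ± 0.07 for MAFG, and 1.92 ± 0.07 and 2.29 ± 0.07 for MAFK. NFE2L1 itself, named after its values were seen, changed by 0.15 ± 0.05 and 0.18 ± 0.05 (edgeR adjusted p = 0.0194 and 0.00489).

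The promoter matches were set beside the changes of the same genes. The 11 tested genes with TGACNNNGC had 7 called higher and 0 lower in A431 and the same counts in CAL27, with medians of 0.21 and 0.36. The 27 tested genes with a matched promoter and without the element had 18 higher and 1 lower in A431 and 17 higher and 4 lower in CAL27. Their medians were 0.23 and 0.35. Over all genes tested, 22.5% were called higher and 21.1% lower in A431, and 23.2% and 26.4% in CAL27. Among the genes whose sequences are printed, PSMD2, with no match to any of the 3 searched elements before its start, had the largest called rise in CAL27. Of those with TGACNNNGC, ADRM1, PSMD12, PSMB3, PSMD3 and PSME4 were called higher in both lines, and PSMD5, PSMG1 and PSMG2 in neither.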

How the data were processed

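The authors deposited 1 table of whole-number counts per library. Reads were aligned to GRCh38 with STAR, per the submitters' processing notes, and counted with featureCounts 2.0.8 over GENCODE 39 exons without regard to strand, per the file headers. Each mate was counted once: of counts from 1 to 40, 70.2% to 76.7% were even, so counting errors taken from these counts are too small. Multi-mapping reads and reads over more than 1 gene were dropped. The headers of the NEDD8i tables name their inputs "MLN". DESeq2, also in the notes, was used here (1.42.0) only as an alternative.

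Counts were fitted with edgeR 4.0.16 in R 4.3.3 (limma 3.58.1): filterByExpr kept 18738 genes, libraries were scaled by TMM, and 1 mean was given to each of 4 groups, with 4 residual degrees of freedom. SE is the absolute log2 change over the square root of F. CPM use the TMM-scaled library sizes. The variance between replicates was 6.43 to 13.6 times that expected from random sampling of counts, a ratio raised by the counting of both mates. Symbols matched 61369 identifiers. The fit was tested on simulated data.

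Members and lists were chosen with earlier results of these data known. Values in every library were given for the 6 largest mean changes among genes called in both lines, the 3 largest called rises and falls in each line, the 6 largest called differences, the 4 largest called differences under DMSO, and PSMB5, PSMB6 and PSMB7. PSMF1, moving in opposite directions, was added after its values were seen. Other lists gave at most 3 genes each by the same kind of rule, beside NFE2L1, and part of the list of ubiquitin genes is not reported here. Alternatives were another scaling, DESeq2, other filters, halved counts, a replicate block, only the groups compared, and leaving out each library.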

Additional observations from a re-analysis of the deposited data

Results flagged for a closer look

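For 22 of the 44 tested proteasome genes the response to NEDD8i differed between the lines by edgeR's quasi-likelihood test of the difference itself. A difference was called for 34.0% of all genes tested. Values are the CAL27 response minus the A431 response on the log2 scale. Positive values were 0.54 for PSMD2, 0.52 for PSMC3, 0.50 for PSMD9, 0.49 for PSMB4, 0.43 for PSMD13, 0.41 for ADRM1, 0.32 for SEM1, 0.32 for PSMC5, 0.30 for PSMB3, 0.25 for PSMA7, 0.25 for PSMC6, 0.24 for POMP, 0.21 for PSMD12 and 0.20 for PSMD4. Negative values were -1.49 for PSMG4, -1.02 for PSMD7, -0.67 for PSMD6, -0.39 for PSMF1, -0.30 for PSMD1, -0.29 for PSMA5, -0.21 for PSMD14 and -0.20 for PSME4. The sign of the response itself was opposite, with both calls made, for PSMG4 and PSMF1. The PSMF1 call in A431 rested on single libraries, and SLC22A23, which overlaps the span of PSMG4, changed with the same signs as PSMG4.

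Over 14 settings, 16 of these 22 calls were made in every one. PSME4 was called in 4 of the 14, PSMD4 in 8, POMP in 9, PSMD12 and PSMD14 in 10 each, and PSMD9 in 12. All of the settings that lost PSMD4, POMP, PSMD12, PSMD14 or PSMD9 left out 1 library. A further 7 genes not called were called in at least 1 setting.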

How the results depend on the processing

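No named change that was called reversed its sign under any alternative run, and the medians of all genes moved by less than 0.1 between scalings. The sign of values smaller than their SE is not settled, such as the PSMB5 difference under DMSO of -0.04 ± 0.05. Calls were made in every one of 15 settings for 27 of 31 genes in A431, 31 of 34 in CAL27 and 23 of 29 between the lines under DMSO. PSMC2, not called in CAL27, was called there in 8 settings. Leaving out 1 library gave 28 to 30 genes called higher and 0 to 1 lower in A431 (0 without A431 NEDD8i replicate 1), 28 to 31 higher and 3 to 5 lower in CAL27, 10 to 15 higher and 6 to 9 lower for the difference, and 18 to 21 higher and 6 to 10 lower between the lines. With 1 library left in a group, that library was assumed to vary like the other groups. The other settings gave up to 20 positive differences, the count by DESeq2. Replicate numbers did not pair the samples (correlations of deviations -0.0303 to 0.0194). With the replicate block 30 genes were higher and 1 lower in A431, 30 and 4 in CAL27, 14 and 8 for the difference, and 20 and 10 between the lines, where PSMD3 was added. Low counts limit PSMA2, whose 156 counts gave a log2 change of 1.45 ± 0.79 in CAL27 that was not called.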

Other observations

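VCP, the ATPase that extracts ubiquitin-tagged proteins for the proteasome, and its cofactors were listed as 13 genes. In A431 9 were called higher and 1 lower, and in CAL27 7 higher and 2 lower, with medians of 0.30 and 0.18. The shares of all genes tested were 22.5% higher and 21.1% lower in A431, and 23.2% and 26.4% in CAL27. The deubiquitinase YOD1 went from 28.1 and 27.8 to 34.5 and 35.8 CPM in A431 and from 16.6 and 16.7 to 43.0 and 45.0 CPM in CAL27. The groups did not overlap, and the difference between the responses was 1.07 ± 0.12 on the log2 scale (edgeR adjusted p = 1.36e-06). UFD1, which brings ubiquitin chains to VCP, changed by 0.54 ± 0.06 and 0.77 ± 0.06, and UBXN1 by 0.50 ± 0.05 and 0.73 ± 0.05, all called.

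Among the genes for ubiquitin, UBB, a gene of ubiquitin repeats, went from 254 and 257 to 137 and 141 CPM in A431 and from 208 and 222 to 191 and 208 CPM in CAL27. The A431 groups lay far apart and the CAL27 groups nearly met, and the log2 changes were -0.87 ± 0.05 and -0.11 ± 0.05 (edgeR adjusted p = 4.15e-10 and 0.088), with a called difference of 0.76. RPS27A changed by 0.28 ± 0.05 in CAL27, which was called, and was not called in A431.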
